A study of Nicotiana benthamiana with 8 samples.

Results

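The ribosomal protein and translation factor contigs of Nicotiana benthamiana leaves expressing the apple transcription factor MdMYB68 were the 31 rows of a 3305-contig table in which an annotation contains "ribosomal", "elongation factor", "translation initiation factor" or "tRNA ligase". By annotation, 22 of them were proteins of the bacterial-type ribosome of plastids, 17 of the large 50S subunit and 5 of the small 30S subunit. There were 3 bacterial-type translation factors (EF-Ts, EF-P and IF-3), 3 contigs of a ribosomal RNA methyltransferase and 1 protein of the cytosolic 40S subunit. The other 2 contigs are not ribosome components and carry an initiation factor word in an annotation. They are an eIF2-alpha kinase-like contig and 1 annotated both as IST1-like and as eIF4 gamma-like. The words found 26 contigs by "ribosomal", 2 by "elongation factor", 3 by "translation initiation factor" and 0 by "tRNA ligase", and 0 of the contigs carried a 60S annotation.

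Leaves of 4-week-old plants were infiltrated with Agrobacterium tumefaciens GV3101-pMP90, a bacterium that transfers DNA into plant cells. In the MdMYB68 group the transferred construct was an MdMYB68-GFP fusion under the constitutive CaMV35S promoter, and in the control group it was the empty p103 vector. Both groups also received pBIN61-p19, which carries a viral suppressor of RNA silencing. Each group had 4 biological replicates, each a pool of 3 plants with 4 leaves per plant, and RNA was taken 4 days after infiltration. Infiltration is known to reach a part of the leaf cells, so the leaves can hold cells without the construct. Whether the replicates were infiltrated on separate days is not given in the sources used here.

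Plastids descend from cyanobacteria and keep a small genome, whose messages, among them those of photosystem core proteins and of the large subunit of Rubisco, are translated inside the organelle on 70S ribosomes built of a 30S and a 50S subunit. The ribosomal RNA and a minority of the ribosomal proteins are encoded in the plastid itself. The remaining proteins and the translation factors are made from nuclear genes, whose products are imported, and it is contigs with nuclear Arabidopsis symbols that are described here. Cytosolic ribosomes, of 40S and 60S subunits, translate the nuclear messages and use a separate set of proteins.

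Libraries of empty vector leaves had between 29371282 and 32279582 mapped reads and those of MdMYB68 leaves between 31244291 and 34080202, the sum over primary and alternate contigs of the reference transcriptome. Reads on the 3305 listed contigs made up between 6.92% and 8.76% of these in the empty vector libraries and between 17.5% and 18.7% with MdMYB68. No library of the 8 repeated another one within counting noise. The authors had listed a contig only where its mean RPKM (reads on a contig divided by its length in kilobases and by the library's mapped reads in units of 1000000) differed at least 4-fold and by at least 5 between these same groups, with an FDR corrected p-value under 0.001. The selection took changes of either direction and set their smallest size, so the tests given here repeat a choice made on the same libraries and are not independent evidence. The level of every contig outside the list was not analysed here, so the list does not say how many of all plastid ribosomal protein contigs behaved in the same way.

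Levels are given below as RPKM on all mapped reads of a library, which puts primary contigs and alternate contigs (further assembled versions of a transcript) on 1 scale. The deposited RPKM took mapped reads separately for primary and alternate contigs, and in it all 31 contigs met both cut-offs. On all mapped reads 24 of the 31 contigs, and 2267 of the 3305, met both. N. benthamiana is an allotetraploid, and contigs with the same symbol can be copies or versions of a gene that share reads. A read that matched a single contig is called uniquely placed, and the share of such reads is given where it bears on a value. The log2 fold changes (MdMYB68 over empty vector), their standard errors (SE) and adjusted p-values come from the quasi-likelihood test of edgeR on total reads per contig, adjusted over the 3305 contigs, and a contig is called at an adjusted p under 0.001.

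Of the 31 contigs, 24 were called lower in leaves expressing MdMYB68, 5 were called higher and 2 were not called. Over all listed contigs 12.4% were called lower and 83.4% were called higher, and the median log2 fold change was 3.34. The lower calls held 20 of the 22 plastid ribosomal protein contigs and all 3 bacterial-type factors, and 0 plastid ribosomal protein contigs were called higher, all 22 having a negative log2 fold change in edgeR and in DESeq2. The higher calls were 2 of the 3 methyltransferase contigs, the 40S protein, the eIF2-alpha kinase-like contig and the eIF4 gamma-like contig. In all 31 the libraries of the groups did not overlap, as in 100% of the listed contigs. The median log2 fold change was -2.08 for the plastid ribosomal proteins, -2.20 for the 3 factors and -2.18 for all 466 listed contigs with a lower mean. In these bulk leaf samples, fewer cells of a type and less RNA per cell cannot be told apart.

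**Figure D1:**
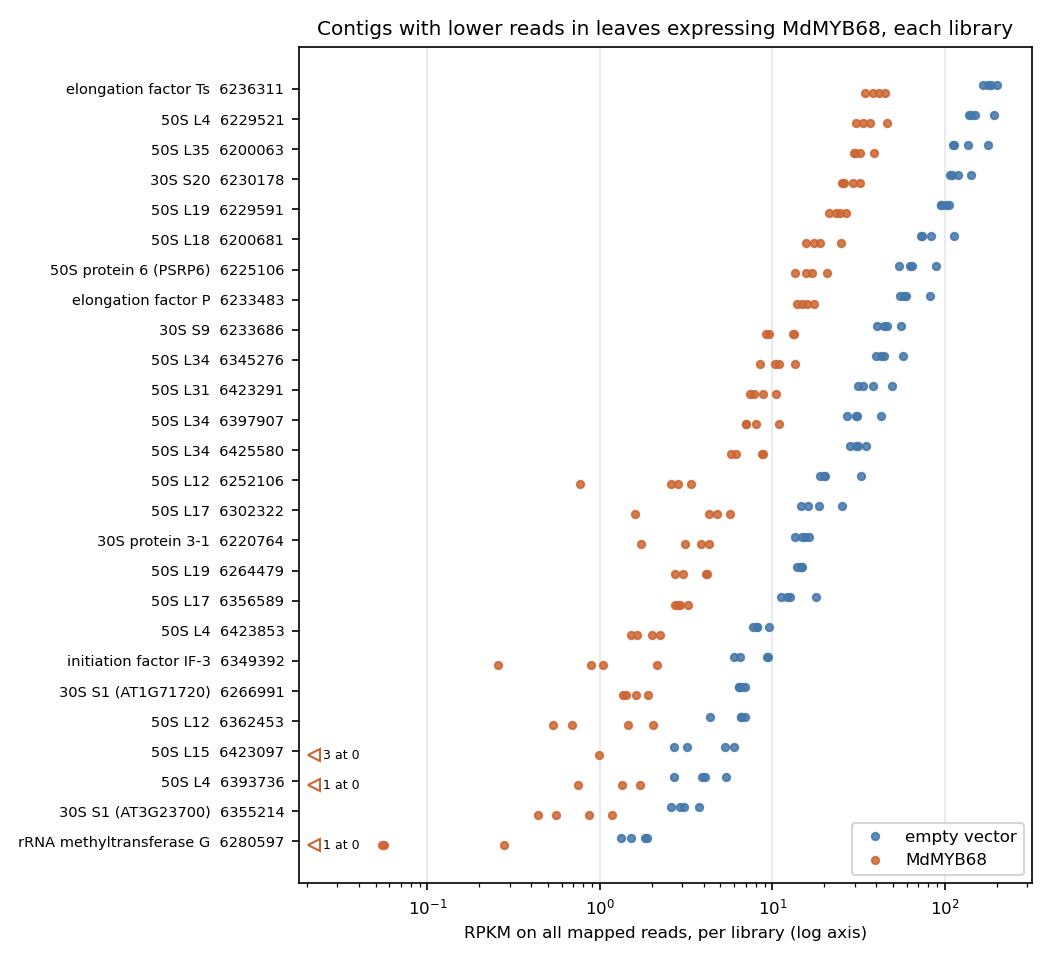
RPKM on all mapped reads (x axis, log scale) of the 26 contigs with a lower mean in MdMYB68 leaves, each point 1 of 8 libraries, blue for the empty vector and orange for MdMYB68, with open triangles where libraries had no read. The contigs run from elongation factor Ts, at a mean of 183 with the empty vector, to a methyltransferase contig at 1.64. In each of them the 4 orange points lie below the 4 blue ones, and the groups are likewise apart in 100% of the listed contigs.

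The 17 contigs of the 50S subunit carried 10 Arabidopsis symbols. The primary contig of RPL4 (Nbv5tr6229521), a protein that in Escherichia coli lines the tunnel through which the new peptide leaves, had the highest mean level of them. Its RPKM was 137, 192, 150 and 143 in empty vector replicates 1 to 4 and 46.4, 33.5, 30.5 and 36.8 with MdMYB68. Every empty vector library lay above every MdMYB68 library, and the groups were likewise apart in all listed contigs. Replicate 2 was the highest control. The means of 155 ± 24.7 and 36.8 ± 6.93 (SD, n = 4) differed 4.22-fold (log2 fold change -2.08, SE 0.17, adjusted p = 5.7e-07), and 100% of its reads were uniquely placed.

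Protein L35 (AT2G24090, Nbv5tr6200063), a small protein of the large subunit, was present at 113, 178, 137 and 111 RPKM with the empty vector and at 38.7, 30.3, 29.8 and 32.1 RPKM with MdMYB68. Replicate 2 was again the highest control. The level was 4.11-fold lower with MdMYB68 (log2 fold change -2.04, SE 0.17, adjusted p = 9.0e-07). Protein L19 (AT4G17560, Nbv5tr6229591), which in Escherichia coli lies at the interface with the small subunit, was less variable. Its RPKM was 94.8, 106, 102 and 94.9 with the empty vector and 26.8, 23.5, 21.4 and 24.5 with MdMYB68, a 4.13-fold lower mean level (log2 fold change -2.05, SE 0.11, adjusted p = 3.4e-08). This SE was the smallest among the 31 contigs.

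Protein L18 (AT1G48350, Nbv5tr6200681), which in Escherichia coli binds the 5S ribosomal RNA, had 74.0, 112, 83.5 and 72.8 RPKM with the empty vector and 25.1, 15.6, 17.4 and 18.9 RPKM with MdMYB68. The mean level was 4.45-fold lower (log2 fold change -2.16, SE 0.20, adjusted p = 1.5e-06). Plastid-specific ribosomal protein 6 (PSRP6, Nbv5tr6225106), a 50S protein with no counterpart in Escherichia coli, had 64.8, 88.3, 63.2 and 54.1 RPKM against 20.6, 13.4, 15.6 and 17 RPKM. Its fold of 4.05 (log2 fold change -2.02, SE 0.19, adjusted p = 1.7e-06) came close to the edge of the list, and its fold in the deposited RPKM, 4.03, was the smallest of the 26. Protein L31 (emb2184, Nbv5tr6423291), a protein of the large subunit whose Arabidopsis symbol marks a gene needed for embryo development, had 33.5, 49.6, 38.1 and 31.4 RPKM against 10.5, 7.82, 7.37 and 8.84 RPKM. The mean was 4.42-fold lower (log2 fold change -2.14, SE 0.21, adjusted p = 3.1e-06). In all 3 the 2 groups of libraries were apart, as in all listed contigs, and at least 99.0% of the reads were uniquely placed.

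Protein L34 (AT1G29070), a small basic protein of the large subunit, was listed with 3 alternate contigs. Nbv5tr6345276 had 42.6, 57.4, 44.3 and 39.96 RPKM with the empty vector and 13.4, 11, 8.50 and 10.4 RPKM with MdMYB68. Nbv5tr6425580 had 30.5, 34.9, 31.5 and 28.0 RPKM against 8.69, 6.18, 5.79 and 8.81 RPKM, and Nbv5tr6397907 had 30.7, 42.8, 30.4 and 27.1 RPKM against 11, 7.98, 7.0 and 7.04 RPKM. The folds were 4.26, 4.24 and 3.98, respectively, and the log2 fold changes of -2.09, -2.08 and -1.99 were within 1 SE of each other (SE 0.17, 0.17 and 0.20, adjusted p = 6.8e-07, 6.2e-07 and 3.4e-06). Of their reads 22.1%, 38.4% and 70.1% were uniquely placed. The last of these contigs met the 4-fold cut-off in the deposited RPKM, at 4.10, but not on all mapped reads.

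Protein L17 (AT3G54210), another protein near the exit tunnel in Escherichia coli, had 2 alternate contigs. Nbv5tr6356589 had 12.6, 17.9, 12.1 and 11.3 RPKM with the empty vector and 2.90, 2.72, 3.25 and 2.85 RPKM with MdMYB68, 4.60-fold lower (log2 fold change -2.20, SE 0.20, adjusted p = 1.4e-06). Nbv5tr6302322 had 18.7, 25.3, 16.0 and 14.6 RPKM against 4.29, 4.80, 1.6 and 5.65 RPKM, 4.57-fold lower (log2 fold change -2.19, SE 0.35, adjusted p = 1.2e-04). Replicate 3 was the lowest MdMYB68 library of the second contig and the highest of the first. The alternate contig of L19 (Nbv5tr6264479) had 14.0, 14.6, 14.9 and 14.6 RPKM with the empty vector and 4.11, 3.03, 2.72 and 4.19 RPKM with MdMYB68. Its mean level was 4.13-fold lower (log2 fold change -2.04, SE 0.19, adjusted p = 1.5e-06), the same fold as in the primary contig of that protein, with 63.1% of reads uniquely placed.

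Protein L12 (RPL12-A) forms the flexible stalk of the large subunit, which in Escherichia coli recruits the translation factors. Both of its contigs were alternate ones with nearly all reads shared, 0.382% being uniquely placed in Nbv5tr6252106 and 4.74% in Nbv5tr6362453. The first had 20.0, 32.7, 18.8 and 20.1 RPKM with the empty vector and 2.57, 2.83, 0.771 and 3.37 RPKM with MdMYB68, a 9.60-fold lower level (log2 fold change -3.25, SE 0.41, adjusted p = 1.9e-05). The second had 6.57, 6.97, 6.61 and 4.34 RPKM against 1.46, 2.02, 0.690 and 0.535 RPKM, a 5.20-fold lower level (log2 fold change -2.37, SE 0.42, adjusted p = 2.5e-04). Neither was called on uniquely placed reads (adjusted p = 0.10 and 0.026), where they had 4 against 0 and 30 against 10 reads over the 4 libraries of each group. The call of the second was also lost without MdMYB68 replicate 3 (adjusted p = 0.0011).

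The 2 uncalled contigs were alternate contigs of RPL15, a protein that in Escherichia coli joins late in the assembly of the large subunit, and of RPL4. Neither had a uniquely placed read. RPL15 (Nbv5tr6423097) had 3.21, 6.01, 2.68 and 5.31 RPKM with the empty vector, 0.984 RPKM in MdMYB68 replicate 2 and no read in the other 3 MdMYB68 libraries. The mean level was 17.5-fold lower (log2 fold change -4.07, SE 1.07, adjusted p = 0.0037). Without MdMYB68 replicate 2 there were 594 reads against 0, so the level was at least 152-fold lower when 3 reads are taken as the limit that no read in a group allows, a limit that covers counting error only, and the contig was called (adjusted p = 1.3e-05). Leaving out that 1 library thus moved both the fold and the call. RPL4 contig Nbv5tr6393736 had 3.93, 2.67, 5.38 and 4.07 RPKM against 1.71, 0, 0.750 and 1.34 RPKM (log2 fold change -2.08, SE 0.75, adjusted p = 0.020). The other alternate RPL4 contig (Nbv5tr6423853), also without a uniquely placed read, had 8.13, 9.61, 8.18 and 7.69 RPKM against 2.01, 1.51, 2.24 and 1.64 RPKM and was 4.54-fold lower (log2 fold change -2.18, SE 0.20, adjusted p = 1.6e-06).

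All 5 contigs of the 30S subunit were called lower, against 12.4% of all listed contigs, with a median log2 fold change of -2.06. Protein S20 (AT3G15190, Nbv5tr6230178), which in Escherichia coli binds the small subunit RNA early in assembly, was the most abundant. It had 108, 142, 119 and 110 RPKM with the empty vector and 32.0, 26.0, 25.2 and 29.5 RPKM with MdMYB68, with 100% of reads uniquely placed. The lowest control stood 3.36-fold above the highest MdMYB68 library. The mean level was 4.25-fold lower (log2 fold change -2.09, SE 0.13, adjusted p = 9.4e-08).

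Protein S9 (RPS9, Nbv5tr6233686), whose Escherichia coli counterpart reaches towards the tRNA in the decoding subunit, had 40.2, 55.7, 46.0 and 44.6 RPKM with the empty vector and 13.3, 9.21, 9.57 and 13.1 RPKM with MdMYB68. It was 4.13-fold lower (log2 fold change -2.05, SE 0.16, adjusted p = 5.9e-07). The contig annotated as 30S protein 3-1 (AT1G68590, Nbv5tr6220764), a protein of plastids and cyanobacteria that Escherichia coli lacks, had 13.6, 16.3, 15.5 and 14.9 RPKM against 3.83, 4.28, 1.72 and 3.12 RPKM, 4.65-fold lower (log2 fold change -2.22, SE 0.27, adjusted p = 1.4e-05). Controls of this contig were even, whereas MdMYB68 replicate 3 lay well under the other 3.

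The S1 annotation, given for the protein that in Escherichia coli brings messages to the small subunit, was carried by 2 alternate contigs with different symbols. It was the word 30S that placed them here, since neither annotation names the chloroplast, and the second annotation of Nbv5tr6266991 (AT1G71720) is a protein that binds the rbcL message. That contig had 6.70, 6.93, 6.36 and 6.41 RPKM with the empty vector and 1.42, 1.63, 1.37 and 1.91 RPKM with MdMYB68, 4.18-fold lower (log2 fold change -2.06, SE 0.18, adjusted p = 9.8e-07). Nbv5tr6355214 (AT3G23700) had 2.58, 3.76, 3.09 and 2.90 RPKM against 0.557, 1.18, 0.438 and 0.862 RPKM, 4.06-fold lower (log2 fold change -2.02, SE 0.32, adjusted p = 1.2e-04). Only 0.366% of the reads of the latter were uniquely placed, 3 against 1, and it was not called on them (adjusted p = 0.41).

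Summed over the 22 plastid ribosomal protein contigs, reads per 1000000 mapped reads were 985, 1273, 1063 and 979 in the empty vector libraries and 298, 239, 217 and 261 in the MdMYB68 libraries. The means of 1075 ± 137 and 254 ± 34.6 (SD, n = 4) differed 4.23-fold. The fold was 4.24 for the sum of the 50S contigs and 4.22 for that of the 30S contigs, and 4.19 for the 7 contigs with over 90% uniquely placed reads. Both subunits ordered the libraries alike at the ends, with replicate 2 the highest control and replicate 3 the lowest MdMYB68 library. Without empty vector replicate 2 the fold of the 22 contigs was 3.97, and without MdMYB68 replicate 3 it was 4.04.

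**Figure D2:**
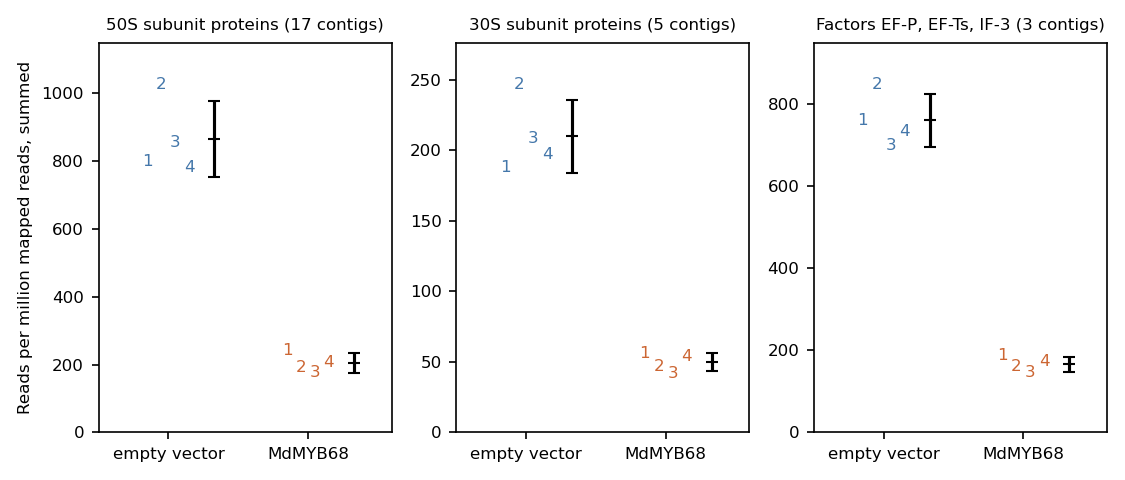
Summed reads per 1000000 mapped reads (y axes, from 0) of the 50S contigs, the 30S contigs and the 3 factors, where each digit is a library placed at its value and named by its replicate number, and the black bar is the mean ± SD of 4 libraries. Empty vector replicate 2 is the highest library in all 3 panels, and the MdMYB68 sums of 204 ± 28.6, 49.8 ± 6.44 and 166 ± 18.2 lie far below the control sums of 865 ± 112, 210 ± 25.9 and 759 ± 63.8.

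Levels of the plastid ribosomal protein contigs ranged over more than an order of magnitude, from a mean of 3.08 RPKM to 155 RPKM with the empty vector, whereas most of their folds lay close together. In the deposited RPKM, 19 of the 22 (86.4%) lay between the cut-off of 4-fold and 5-fold, with a median of 4.36. Among the other 440 contigs listed as lower, 264 (60%) did so, with a median of 4.63. Many of these contigs thus stood just inside the list, and a single library could move them out of it. Without empty vector replicate 2, 8 of the 22 (36.4%) fell under 4-fold, against 101 of the 440 others (23.0%), and without MdMYB68 replicate 3, 10 of the 22 (45.5%) did, against 100 of the 440 (22.7%). Without MdMYB68 replicate 2 it was 4 of the 22, and without any 1 of the other 5 libraries at most 1. These shares are descriptions, with no test, since the list was cut on the same values.

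Empty vector replicate 2 was the highest control in 23 of the 26 contigs with a lower mean (88.5%), and in 236 of the 440 other lower contigs (53.6%). MdMYB68 replicate 3 was the lowest of its group in 16 of the 26 (61.5%) and in 193 of the 440 (43.9%). The contigs of these proteins therefore varied together between libraries of 1 group, and cannot be read as separate replicates of a difference.

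Of the 3 bacterial-type factors, elongation factor Ts (emb2726, Nbv5tr6236311), which recharges the factor EF-Tu that carries aminoacyl-tRNA to the ribosome, had the highest level of all 31 contigs with the empty vector. Its RPKM was 185, 201, 167 and 178 with the empty vector and 45.2, 38.1, 34.5 and 41.3 with MdMYB68. Controls spanned a narrow range and no library came near the other group, the lowest control being 3.70-fold above the highest MdMYB68 library. The means of 183 ± 14.5 and 39.8 ± 4.58 (SD, n = 4) differed 4.60-fold (log2 fold change -2.20, SE 0.13, adjusted p = 5.7e-08). Its second annotation is a titin-like protein, so the name rests on the first annotation and the symbol.

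Elongation factor P (AT3G08740, Nbv5tr6233483), which in Escherichia coli helps the ribosome through stretches of proline, had 57.8, 81.9, 59.6 and 55.2 RPKM with the empty vector and 17.5, 14.8, 13.9 and 16.0 RPKM with MdMYB68. It was 4.10-fold lower (log2 fold change -2.03, SE 0.15, adjusted p = 3.1e-07). For both elongation factors 100% of the reads were uniquely placed. Neither annotation names a compartment.

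Initiation factor IF-3 (AT4G30690, Nbv5tr6349392), whose Escherichia coli form keeps the subunits apart until initiation, was an alternate contig with no uniquely placed read. It had 6.48, 6.02, 9.26 and 9.48 RPKM with the empty vector and 0.258, 2.13, 0.888 and 1.04 RPKM with MdMYB68. The MdMYB68 libraries spread widely, replicate 1 the lowest and replicate 2 the highest. The mean was 7.24-fold lower (log2 fold change -2.85, SE 0.50, adjusted p = 2.3e-04), and the call was lost without MdMYB68 replicate 3 (adjusted p = 0.0015) or 4 (adjusted p = 0.0013).

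The largest decreases were found where few reads were uniquely placed. Over 90% of the reads were uniquely placed in 9 lower contigs, 8 of them primary contigs. Their fold ran from 4.05 to 4.60 with a median of 4.22. All 9 were called on uniquely placed reads, but these were at least 99.0% of their reads, so that call repeats the main one. In the 9 with 16.9% to 70.1%, the fold ran from 3.98 to 4.65 with a median of 4.24, and again all 9 were called. In the 8 contigs with under 5%, all alternate ones, it ran from 4.06 to 17.5 with a median of 6.22, and 0 were called on uniquely placed reads, 4 of them having no such read and the other 4 an adjusted p between 0.026 and 0.51 in edgeR. Of all 31 contigs 18 were called lower and 5 higher on uniquely placed reads, where 9.91% of the 2907 listed contigs with such a read were called lower and 80.3% higher. The folds above 5, of RPL15, a methyltransferase contig, both L12 contigs and IF-3, were all in the last set, and the part of shared reads in them was not tested.

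**Figure D3:**
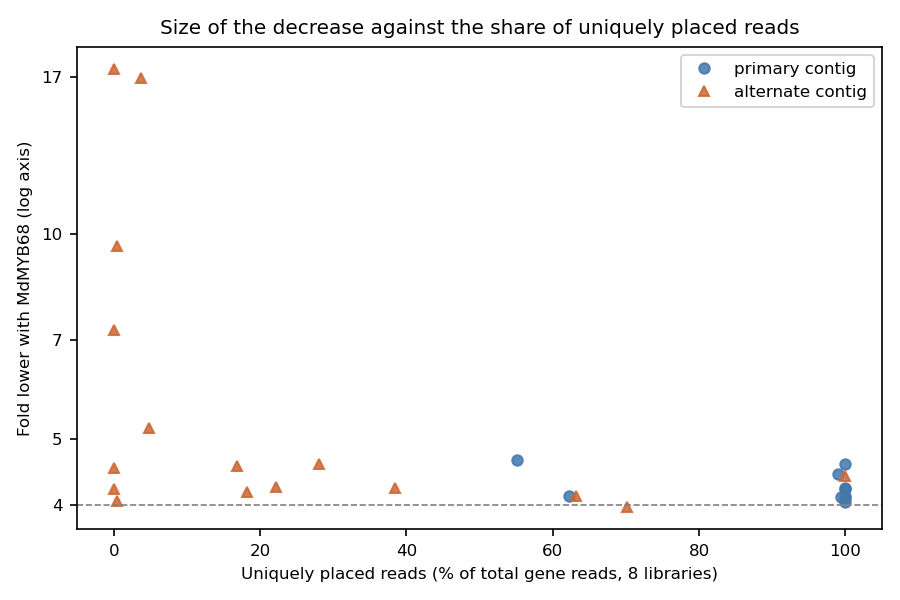
Fold by which the mean RPKM was lower with MdMYB68 (y axis, log scale) against the share of uniquely placed reads over the 8 libraries (x axis, percent) for the 26 lower contigs, circles for primary and triangles for alternate contigs, with the 4-fold cut-off dashed. Points with over 5% uniquely placed reads lie between 3.98 and 4.65, and the points above 5 sit at the left edge.

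Methyltransferase G modifies the small subunit ribosomal RNA in Escherichia coli, and its Arabidopsis symbol here, AT5G50110, was carried by 3 alternate contigs that went in opposite directions. Nbv5tr6280598 had no read in 3 empty vector libraries and 15 reads (0.283 RPKM) in replicate 4, against 623, 707, 747 and 757 reads (12, 12.6, 14.6 and 14.3 RPKM) with MdMYB68. The mean level was 189-fold higher (log2 fold change 7.47, SE 0.74, adjusted p = 2.9e-06). Without empty vector replicate 4 the control had no read, and the level was at least 669-fold higher with the same limit of 3 reads. Uniquely placed reads were 0 with the empty vector and 505 with MdMYB68.

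Nbv5tr6325910 had 0.485, 0.445, 0.445 and 0.519 RPKM with the empty vector and 6.61, 4.57, 6.08 and 6.34 RPKM with MdMYB68, 92.6% of its reads being uniquely placed. It was 12.5-fold higher (log2 fold change 3.63, SE 0.24, adjusted p = 1.3e-07). Nbv5tr6280597 went the other way, with 1.82, 1.89, 1.51 and 1.33 RPKM against 0.276, 0, 0.0560 and 0.0543 RPKM, 16.9-fold lower (log2 fold change -4.05, SE 0.57, adjusted p = 4.4e-05). Without MdMYB68 replicate 1, which held 10 of the 14 MdMYB68 reads, its log2 fold change was -5.38 (adjusted p = 7.9e-06). Only 3 of its 231 reads with the empty vector and 6 of its 14 with MdMYB68 were uniquely placed, and on these reads its log2 fold change was 0.84 (adjusted p = 0.51). On Nbv5tr6280598, the contig with the next identifier, 0 of the 15 control reads were uniquely placed. Nearly all control reads of both contigs thus could not be assigned to a single contig. The part of shared reads in the folds and opposite directions of these 2 contigs was not tested.

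**Figure D4:**
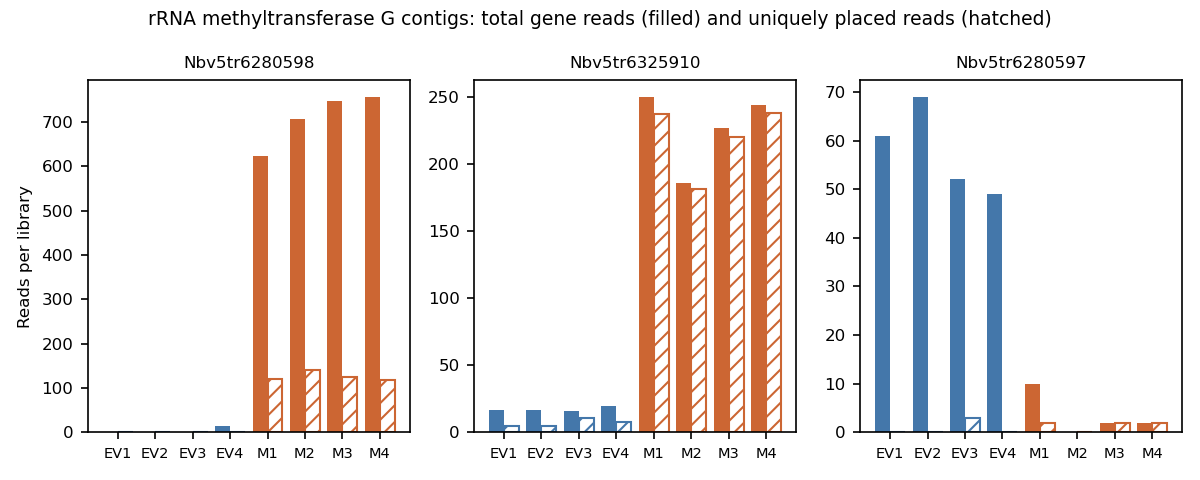
Reads per library (y axes, from 0, each panel on its own scale) on the 3 contigs of methyltransferase G, filled bars for total reads and hatched bars for uniquely placed reads, blue for empty vector replicates 1 to 4 (EV1 to EV4) and orange for MdMYB68 replicates 1 to 4 (M1 to M4). In the right panel the decrease from between 49 and 69 reads to at most 10 is seen in total reads, with at most 3 uniquely placed reads in any library.

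The 1 cytosolic ribosomal protein listed, S3-2 of the 40S subunit (AT3G53870, Nbv5tr6349068), belongs to the part of the small subunit where the message enters. It had 2.05, 2.71, 1.94 and 2.51 RPKM with the empty vector and 15.2, 15.7, 13.9 and 10.7 RPKM with MdMYB68. The level was 6.03-fold higher on all mapped reads (log2 fold change 2.59, SE 0.23, adjusted p = 1.4e-06), while with TMM factors and with DESeq2 size factors computed on the listed contigs the log2 fold change was -0.37 and -0.34. Those factors take most listed contigs as unchanged, whereas every listed contig had been chosen for a difference of at least 4-fold. They lower the median of the list from 3.34 to 0.40 and 0.43.

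The signs of the eIF2-alpha kinase-like and eIF4 gamma-like contigs turned as well under these factors. The contig annotated as an eIF2-alpha kinase-like protein (Nbv5tr6222879), a type of enzyme that slows cytosolic initiation, had 1.16, 1.16, 1.04 and 1.01 RPKM with the empty vector and 7.19, 5.10, 5.70 and 5.97 RPKM with MdMYB68. It was 5.47-fold higher on all mapped reads (log2 fold change 2.45, SE 0.23, adjusted p = 1.8e-06), against -0.50 with TMM and -0.47 with DESeq2 factors, neither of which was called (adjusted p = 0.054 and 0.051). The contig with the annotations IST1-like and eIF4 gamma-like (Nbv5tr6211399) had 2.22, 2.83, 3.35 and 3.58 RPKM against 11.4, 12.3, 13.6 and 12.9 RPKM. It was 4.19-fold higher (log2 fold change 2.07, SE 0.17, adjusted p = 6.8e-07), against -0.89 with TMM (adjusted p = 8.0e-04) and -0.86 with DESeq2 factors (adjusted p = 8.7e-08), where it was called lower. IST1 proteins act in membrane sorting, so its annotations name different functions. Of the 5 higher contigs, the 2 of methyltransferase G kept a positive log2 fold change under both factors, 4.55 and 0.69 with TMM. All 26 lower contigs remained negative. These factors shift log2 fold changes down, so neither those signs nor lower calls under them test the decrease. The median of the plastid ribosomal proteins went from -2.08 to -5.03 with TMM. With TMM factors 27 of the 31 contigs were called lower and 1 higher, where 18.5% of the list was called lower and 29.2% higher, and with DESeq2 factors 27 and 1, where it was 22.7% and 37.1%.

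**Figure D5:**
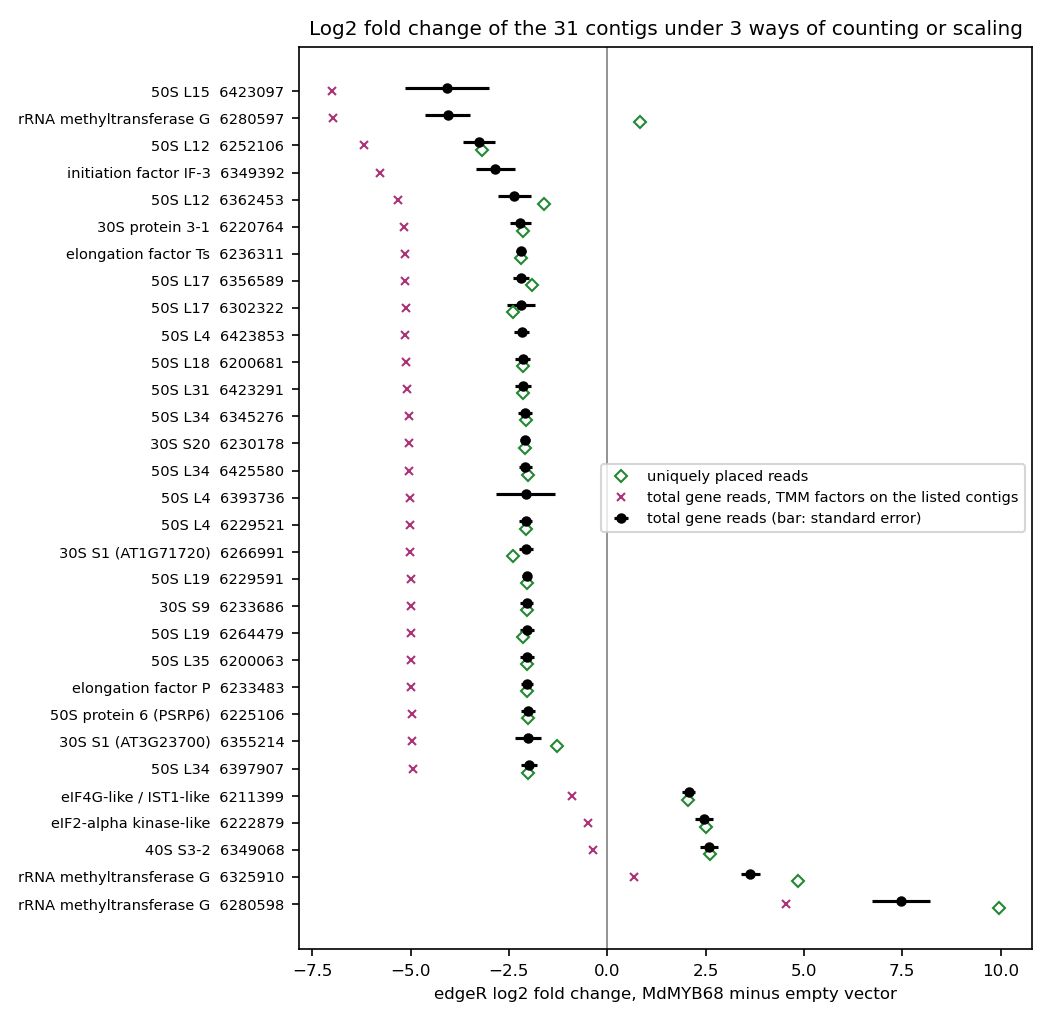
Log2 fold change, MdMYB68 over empty vector (x axis), of the 31 contigs from total reads on all mapped reads (black, bar ± SE), from uniquely placed reads where a contig has any (green diamonds), and with TMM factors (crosses). Most lower contigs lie near -2 in black and near -5 with TMM, and 3 of the 5 higher contigs lie below 0 with TMM.

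Other contigs of the plastid translation pathway and of the plastid were looked up by keywords in the same table. The 1 release or recycling factor listed, the ribosome recycling factor RRF (Nbv5tr6396461), which splits ribosomes after termination, had 1.32, 1.90, 1.38 and 1.59 RPKM with the empty vector and 0.300, 0, 0.211 and 0.613 RPKM with MdMYB68. It was not called (log2 fold change -2.46, SE 0.62, adjusted p = 0.0030), with 3.21% of its reads uniquely placed. A count of 0 listed contigs carried an aminoacyl-tRNA synthetase annotation. Of 23 pentatricopeptide repeat proteins, which bind and process organelle messages, 17 were called higher and 6 lower, against 83.4% and 12.4% of all listed contigs, with a median log2 fold change of 2.90 that was -0.05 with TMM factors. The 6 included both listed contigs of PTAC2, a protein of the plastid transcription machinery named after its values were seen, with log2 fold changes of -2.73 (SE 0.53, adjusted p = 4.8e-04) and -1.98 (SE 0.14, adjusted p = 1.8e-07). Of the reads of these 2 contigs 0% and 0.0217% were uniquely placed. Other pentatricopeptide contigs with a chloroplast annotation went either way. Among them Nbv5tr6424115 was lower (log2 fold change -2.44), while the contigs with the symbol AT5G50390 were higher (2.45, 2.50 and 2.90). With TMM factors the latter had -0.51, -0.45 and -0.05. On uniquely placed reads 1 of the 23 pentatricopeptide contigs was called lower and 13 higher.

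Of 3 sigma factors, which direct the plastid RNA polymerase to its promoters, sigF (Nbv5tr6405338) had between 0.454 and 1.15 RPKM in controls and no read with MdMYB68 and was called lower (adjusted p = 1.7e-05). The others, sigA (Nbv5tr6374438, log2 fold change -3.95, SE 0.90, adjusted p = 0.0015) and sigC (Nbv5tr6257218, log2 fold change -2.17, SE 0.61, adjusted p = 0.0056), were not called. All 3 had few uniquely placed reads, between 2.73% and 16.6%. The 4 contigs annotated to ribosome biogenesis were called higher, as were 83.4% of all listed contigs. They were ESF1 (Nbv5tr6233721), which in yeast acts on the precursor of the ribosomal RNA in the nucleolus, with a log2 fold change of 2.30 that was -0.66 with TMM factors, and 3 contigs of the rRNA processing protein AT5G61330. These 3 had 3.14, 3.29 and 3.70, and with TMM 0.20, 0.33 and 0.75, where the median of the list was 0.40. Of their reads 52.0%, 0.761% and 28.9% were uniquely placed.

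Listed messages of leaf photosynthesis were lower too. The 4-fold cut-off set the smallest size of their changes and of those of the ribosomal proteins, so like medians do not show that they moved together. Over all listed contigs 12.4% were called lower and 83.4% higher. Of 54 listed contigs of photosystem and chlorophyll a-b binding proteins 53 were called lower and 0 higher, with a median log2 fold change of -2.05, and all 11 Rubisco contigs were called lower, with a median of -2.12. Their summed level was between 20851 and 30149 reads per 1000000 mapped reads in controls and between 4916 and 7442 with MdMYB68 for the first list, and between 5740 and 9501 against between 1360 and 2274 for the second, 4.20-fold and 4.32-fold lower in the mean, and 0 of these contigs were without reads in a group. Of the 232 contigs outside the 31 with a chloroplast or plastid annotation, 62 of them on those lists, 152 were called lower, 67 higher and 13 not called, with a median of -2.05. Photosystem and Rubisco messages mark mesophyll, the green tissue of the leaf. The part of a change in the share of green cells or of plastid RNA in the decrease of the ribosomal proteins was not tested.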

How the data were processed

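RNA of 8 leaf samples was sequenced as 75 base-pair paired-end reads. The authors trimmed the reads and mapped them in CLC Genomics Workbench to primary and alternate transcriptome contigs at 80% identity and coverage. They deposited total and uniquely placed read counts per contig, without normalization, and RPKM values, which scale total reads by contig size and by mapped reads, taken separately for primary and alternate contigs. The authors' mean RPKM, fold change, its log2, difference and p-values are in the table too, and the comparison columns were not used. The number of per-sample columns left out was 0. No strand information is given in the sources used here.

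Mapped reads per library were recovered from the deposited RPKM, counts and contig sizes. The counts of all 3305 contigs were fitted with edgeR 4.0.16 in R 4.3.3, with all mapped reads as library size, normalization factors of 1, no covariate and no filter. The SE is the size of the log2 fold change over the square root of F. With so few libraries, precision is limited by the spread between replicates, which may in part be technical, and for the contigs with the fewest reads by counting. The smallest p of an exact permutation test is 0.029 for 4 against 4, so none was used. Classes were assigned by annotation words, and all 31 contigs are named. The contigs and keyword lists were chosen with earlier results of these data known. The test was tried on simulated counts. Alternatives were uniquely placed reads, TMM factors, DESeq2 1.42.0, limma 3.58.1 on the log2 of RPKM plus 1 or plus 0.1, reference set totals, a minimum mean of 10 reads, an adjusted p of 0.05, the replicate number as a block, and each library left out in turn. Tables and figures were made with Python 3.11.15, numpy 2.4.6, scipy 1.17.1, pandas 2.3.3 and matplotlib 3.10.9. Contig sequences and genome coordinates were not used here.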

Additional observations from a re-analysis of the deposited data

Results flagged for a closer look

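In 5 of 62 groups of 4 libraries, 1 library lay far from the others by Dixon's criterion, the gap to its neighbour taking up most of the range. For independent, normally distributed values the criterion flags about 1 in 20 groups. These groups share libraries and reads, so that rate does not apply to them. Where only 1 library of a group had reads, it meets the criterion at any level. Empty vector replicate 4 was the only control with reads on methyltransferase G contig Nbv5tr6280598, at 0.283 RPKM. Empty vector replicate 2 stood above the others on elongation factor P (Nbv5tr6233483), at 81.9 RPKM against 55.2 to 59.6 RPKM, and on L12 contig Nbv5tr6252106, at 32.7 RPKM against 18.8 to 20.1 RPKM. Empty vector replicate 4 was the low one on L12 contig Nbv5tr6362453, at 4.34 RPKM against 6.57 to 6.97 RPKM. MdMYB68 replicate 2 was the only library of its group with reads on RPL15 contig Nbv5tr6423097, at 0.984 RPKM.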

How the results depend on the processing

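The log2 fold changes of all 31 contigs kept their direction and side of the threshold with DESeq2 at fixed library sizes, reference set totals, limma on log2(RPKM + 0.1) and a minimum mean of 10 reads, and also with mapped reads outside the listed contigs as library size, an alternative chosen after seeing the data. With the last of these the median log2 fold change of the plastid ribosomal proteins was -1.91, against -2.08, and so under 4-fold. With limma on log2(RPKM + 1) RPL15 contig Nbv5tr6423097 was called too (adjusted p = 1.3e-04), which gave 25 lower contigs and 21 lower plastid ribosomal proteins, and at an adjusted p under 0.05 edgeR called 26 and 22, with 5 contigs higher in both. Scaling on the listed contigs, which takes most of them as unchanged although all were chosen as changed, altered more calls. The contigs called higher numbered 1 with TMM factors and 1 with DESeq2 factors, against 5, and the cytosolic ribosomal proteins called higher 0 and 0, against 1. Signs turned for 40S S3-2 (-0.37 with TMM, -0.34 with DESeq2), the eIF2-alpha kinase-like contig (-0.50 and -0.47) and the eIF4 gamma-like contig (-0.89 and -0.86, called lower with both), and Nbv5tr6325910, still positive at 0.69 and 0.71, was no longer called. Over all contigs TMM gave 1576 calls, 964 higher and 612 lower, and DESeq2 gave 1977, 1227 higher and 750 lower, against 3168, 2757 higher and 411 lower. On uniquely placed reads Nbv5tr6280597 turned to 0.84, and 18 of the 31 were called lower and 5 higher. Leaving out 1 library gave between 22 and 25 contigs called lower and 5 called higher, and between 19 and 21 plastid ribosomal protein contigs called lower with 0 higher. Replicate numbers did not pair the libraries, same-numbered deviations correlating between -0.07 and -0.005 over 3272 contigs. With a replicate block 22 contigs were called lower and 5 higher, 20 plastid ribosomal proteins lower and 0 higher, and the 40S protein higher, while IF-3 (adjusted p = 0.0014) and Nbv5tr6280597 (adjusted p = 0.0019) were no longer called. The cause of these changes was not tested. Depth limits the contigs with few reads or few uniquely placed ones.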
